A study of Mus musculus with 346 samples.

Results

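Cdh19, Kcna1, Fign, Tmod2, Gfra3, Gatm, Lpar1, Aspa, Cyp2j9 and Cmtm5 are 10 genes of the 27179 in the deposited tables that were read at high level in the mammary cells of 2-week-old mice and in few cells of older mice. They were picked by these same stage levels, very high before puberty and near absent later, so the contrast between stages is given here as a description and no test was made of it. What the choice did not use is how the genes varied among the pre-pubertal cells, what those cells carried with them, and which later cells held them.

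The study profiled single cells that were sorted as total mammary epithelium from FVB/NJ mice, an inbred laboratory strain, to follow cell diversity through postnatal development. Each cell was caught in its own chamber of a Fluidigm C1 chip, where its polyadenylated RNA was turned into full-length cDNA. The tables hold 144 cells of the Pre-puberty stage (2 weeks of age), 136 of the Puberty stage (4.7 to 4.9 weeks) and 66 of the Adult stage (10 weeks), all untreated and female. The series record gives 8 mice per stage, while a legend of the study gives other numbers of mice. Since no label ties a cell to a mouse, each stage counts as 1 sample, cells are not replicates, and intervals below cover counting error only. Cells with at least 100000 reads and 1500 detected genes were analysed, which left 116, 119 and 44 cells. Their reads ran from 109391 to 1189581 per cell, with medians of 296710, 575453 and 335009 by stage.

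Before puberty the sort label and most epithelial markers did not match. Of 16 genes of mammary epithelium, the median pre-pubertal cell held 0, against 10 at puberty and 8 in the adult. Each cell was thinned to 100000 reads drawn at random for this and the other marker counts. The list holds keratins of both layers and overlaps the luminal and basal lists below, so the 3 counts are not independent. Epcam, the adhesion molecule that defines epithelium, was at 16.4 CPM (counts per 1000000 reads of the stage) before puberty, 939 at puberty and 1450 in the adult. The first of these was 9.21 when its top cell was left out. Of 14 luminal genes the stage medians were 0, 9 and 7. The 15 basal genes differed less, with medians of 2, 2 and 7 per cell and summed levels of 2105, 3734 and 9692 CPM. Of 28 genes known from Schwann cells, the glia of peripheral nerve, the median pre-pubertal cell held 15, against 2 and 3 later. Sox10, the transcription factor of neural crest and Schwann cells, was detected in 77.6% of pre-pubertal cells and at 253, 37.4 and 32.7 CPM by stage, or 220, 22.5 and 11.0 without the top cell of each. Of 12 fibroblast genes the median pre-pubertal cell held 5, and the collagens Col3a1, Col1a2 and Col1a1 were detected in 100%, 97.4% and 94.0% of these cells, but Dcn in 11.2%. Genes of oligodendrocytes, neurons, melanocytes, endothelium, pericytes and immune cells were at a median of 0 per cell, and Olig2, which defines oligodendrocytes, had no read at any stage. The study's lineage gate removed endothelial and blood cells by surface antigens, and no antigen of glia was part of it. For total epithelial cells of adult glands the paper also gives positive staining for CD24. It reports basal and luminal keratin proteins in images of pre-pubertal ducts. Its western blots of single pre-pubertal cells found some with both kinds of keratin. The sequenced cells are called here by their stage alone, and the part of other cell types in the stage contrast was not tested.

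Schwann cells wrap or ensheath the axons of peripheral nerves, and they come from the neural crest. Those that form myelin make large amounts of myelin proteins such as Mbp and Pmp22, while those that do not form myelin keep adhesion molecules such as Ncam1 and L1cam. Mammary epithelium has an outer basal layer and an inner luminal layer and is marked by keratins and Epcam.

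The 10 genes have separate places in the genome and separate roles. In the RefSeq annotation of GRCm38.p6, Cdh19 lies at chr1:110888002-110977601, Kcna1 at chr6:126636463-126645801, Fign at chr2:63971508-64098038, Tmod2 at chr9:75565621-75611342 and Gatm at chr2:122594473-122611277. Lpar1 lies at chr4:58435252-58554027, Cyp2j9 at chr4:96568424-96592523, Aspa at chr11:73304987-73326876 and Cmtm5 at chr14:54936176-54943045. RefSeq promoter windows of that build were found for 7 of the 10 genes, with no entry for Cdh19, Kcna1 and Gfra3. The 250 bases before each start were searched on both strands for AACAAT and AACAAAG, the cores bound by Sox factors, since Sox10 was read in most pre-pubertal cells. AACAAT was in 9.42% and AACAAAG in 5.03% of 32851 such windows of all genes. Among the members' 11 windows, AACAAT was in 2, at starts inside the Lpar1 and Aspa genes as annotated, and AACAAAG in 1, the same Lpar1 window. These 2 windows are printed 5′ to 3′ in the direction of the gene, both on the minus strand, with the Sox cores of either strand in capitals.
Lpar1, chr4:58499404-58499653: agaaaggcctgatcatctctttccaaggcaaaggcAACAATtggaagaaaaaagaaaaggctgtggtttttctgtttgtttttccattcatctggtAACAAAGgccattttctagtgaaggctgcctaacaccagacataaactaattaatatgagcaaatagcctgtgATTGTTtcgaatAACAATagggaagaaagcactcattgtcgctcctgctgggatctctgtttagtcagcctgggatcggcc
Aspa, chr11:73324638-73324887: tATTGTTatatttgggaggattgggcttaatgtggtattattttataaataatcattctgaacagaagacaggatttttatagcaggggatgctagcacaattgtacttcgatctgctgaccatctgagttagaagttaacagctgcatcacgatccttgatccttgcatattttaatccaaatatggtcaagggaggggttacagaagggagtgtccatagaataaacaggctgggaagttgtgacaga
The Lpar1 window held 3 copies of AACAAT and 1 of AACAAAG. The Aspa window held 1 copy, 249 bases before the start. The other 2 Lpar1 windows held none. CANNTG, the E-box, was in 7 of the 11 windows and in 66.2% of all, and TATAAA in 1 and in 12.4%. These matches describe the letters only.

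For every member the log2 ratio of pre-puberty over each later stage, after adding 5 CPM to both, was above 1, which the choice of genes fixes. Over all genes at 10 CPM or more in either stage, 21.5% were above 1 against puberty and 31.7% against the adult. The median ratio of the members was 6.10 against puberty and 6.66 against the adult, where the medians over all genes tested were -0.12 and 0.03. By reads per 1000 bases of gene length and per 1000000 reads (RPKM), the scale on which genes can be compared, the order before puberty was Lpar1 (1005), Gatm (696), Cmtm5 (348), Cdh19 (333), Kcna1 (289), Aspa (259), Gfra3 (230), Cyp2j9 (132), Fign (109) and Tmod2 (53.8).

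**Figure D1:**
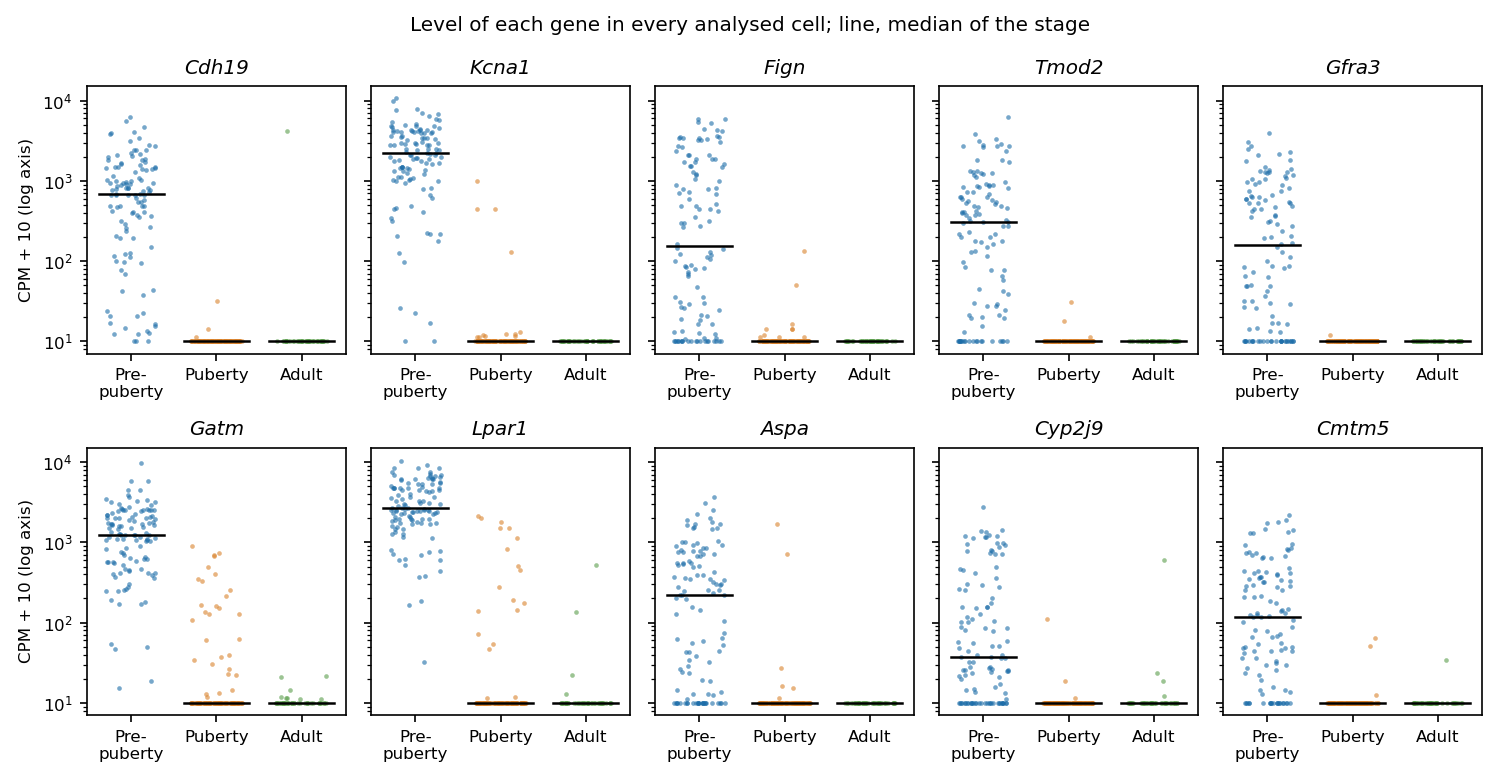
CPM plus 10 of each of the 10 genes in each analysed cell, on a log axis, by stage, with the stage median as a line (116, 119 and 44 cells). Lpar1, Gatm and Kcna1 had the highest medians before puberty, Lpar1 and Gatm had reads in all 116 cells while the other 8 genes ran down to 0 in some, and the later medians were 0 for all 10.

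The receptors and the adhesion molecule came first by role. Lpar1, a receptor for lysophosphatidic acid, was the most abundant member, at 3539 CPM (95% Poisson interval 3521 to 3557) before puberty. It ran from 22.7 to 10424 CPM over the pre-pubertal cells with a median of 2639, and it was detected in all 116 thinned cells. At puberty it stood at 127 CPM and was detected in 14.3% of thinned cells, of which the highest reached 2112 CPM, so the top pubertal cells overlapped the pre-pubertal range. In the adult it stood at 12.6 CPM, with 172 of its 236 reads in 1 cell.

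Gfra3, the co-receptor through which artemin signals to Ret, stood at 457 CPM before puberty, with a range over cells from 0 to 3942 and a median of 147.6. Thinned, 72.4% of these cells had a read of it. Puberty had a single read and the adult none. With the adult 0 taken at the limit of 3 counts, Gfra3 was 2855-fold higher before puberty than in the adult. The lower Poisson limit of this fold was 2321, which covers counting error only and not the spread between cells. Cdh19, a cadherin of the neural crest lineage, stood at 1016 CPM before puberty, ran from 0 to 6269 CPM with a median of 672, and was detected in 92.2% of thinned cells. Puberty had 11 Cdh19 reads in 3 cells. The adult level of 55.8 CPM came from 1 cell, adult cell 44, which held all 1045 reads at 4155 CPM, inside the pre-pubertal range, and without that cell there was no adult read.

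Kcna1, a voltage-gated potassium channel subunit of axons, stood at 2596 CPM before puberty. It ran from 0 to 10732 CPM over cells, with a median of 2186, and was detected in 97.4% of thinned cells. Puberty stood at 10.8 CPM, from 741 reads in 12 cells, 7 of which had 1 read, and the adult had none. With the adult 0 taken at the limit of 3 counts, Kcna1 was 16202-fold higher before puberty. The lower Poisson limit of this fold was 13176, which covers counting error only and not the spread between cells.

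Fign and Tmod2 act on the cytoskeleton. Fign, fidgetin, cuts microtubules, and it stood at 942 CPM before puberty, with a range from 0 to 5851 and a median of 145.3. It was detected in 75.0% of thinned cells, and its mean of 1000 CPM per cell (SD 1473) lay far above its median, with an upper quartile of 1553 CPM. Tmod2, a tropomodulin that caps actin filaments and is best known from neurons, stood at 552 CPM, ran from 0 to 6330 with a median of 297, and was detected in 78.4%. Later, Fign had 82 reads at puberty, 43 of them in cell 105, and Tmod2 had 15, 13 of them in cell 59. Neither had an adult read.

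Gatm, Aspa and Cyp2j9 are enzymes. Gatm catalyses the first step of creatine synthesis. It stood at 1640 CPM before puberty, ran from 5.34 to 9849 with a median of 1239, and was detected in all 116 thinned cells. Puberty stood at 52.5 CPM with detection in 22.7% of thinned cells and a highest cell of 900 CPM, and the adult had 12 reads over 8 cells. Aspa, which cleaves N-acetylaspartate, stood at 398 CPM (range 0 to 3705, median 214, detected in 73.3%). Its pubertal level of 21.1 CPM came to 62.1% from cell 52. Cyp2j9, a cytochrome P450 that forms epoxides from arachidonic acid, was the lowest by CPM at 257 (range 0 to 2716, median 27.4, detected in 70.7%). It had 76 pubertal reads, 73 of them in cell 37, and 183 adult reads, 172 of them in cell 5, which reached 601 CPM.

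Cmtm5, a membrane protein with a MARVEL domain that is known from myelinating glia, stood at 310 CPM before puberty, ran from 0 to 2169 with a median of 108, and was detected in 76.7% of thinned cells. It had 80 reads in 3 pubertal cells and 12 reads in 1 adult cell. For each of the 10 genes some pre-pubertal cells lay as low as the later cells or, for Lpar1 and Gatm, below the highest of them, so no gene separated the stages cell by cell.

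The genes were together in most pre-pubertal cells. The median thinned cell held 9 of the 10, with quartiles of 8 and 10 and a lowest value of 4. All 10 were found in 32 cells (27.6%, exact interval 19.7 to 36.7%) and 8 or more in 88 (75.9%, 67.0 to 83.3%). Detection in most cells was not particular to the members. Over 645 other genes at a like pre-pubertal level, the median share of thinned cells was 84.5% (quartiles 73.3 and 94.0%). The median over the members was 77.6%. At puberty 73 of 119 cells held none and 35 held 1, while 5 cells (4.20%, 1.38 to 9.53%) held 3 or more and no cell held more than 5. In the adult 34 of 44 cells held none and 10 held 1, and 0 of 44 held more, which allows a share of up to 6.82%.

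**Figure D2:**
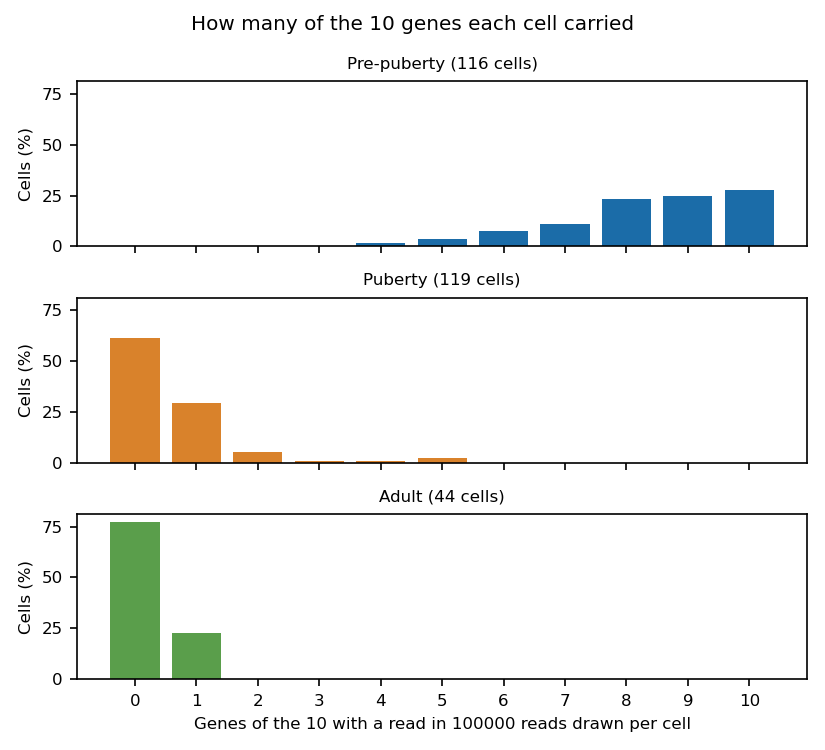
Percent of cells (vertical) that held each number of the 10 genes (horizontal) with at least 1 read after thinning to 100000 reads, for the 116 pre-pubertal, 119 pubertal and 44 adult cells. Pre-pubertal cells ran from 4 to 10 and the later cells from 0 to 5, with 5 pubertal cells at 3 or more.

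The level of each gene varied widely over the pre-pubertal cells, counting those at 0. The coefficient of variation of CPM over the 116 cells ran from 0.668 for Lpar1, 0.789 for Kcna1 and 0.889 for Gatm to 1.79 for Cyp2j9. Its median over the members was 1.46, near the median of 1.35 over 645 genes at a like pre-pubertal level, whose quartiles were 1.08 and 1.67. No member rested on 1 cell: the cell with the most reads of a gene held 4.37% (Gatm) to 12.1% (Cyp2j9) of its pre-pubertal reads.

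Levels moved together weakly from cell to cell. Over the 116 cells, Spearman's rho of CPM had a median of 0.138 over the 45 pairs of members and was positive in 39 (86.7%). Over the 99 cells with 3 or more Schwann and at most 3 epithelial genes the median was 0.0735. Over 207690 pairs of the 645 genes at a like level the median was 0.0275 and 60.4% were positive. The highest pairs were Kcna1 with Lpar1 (0.346), Tmod2 with Gatm (0.287), Tmod2 with Cmtm5 (0.279) and Gatm with Lpar1 (0.255). The lowest was Gfra3 with Gatm (-0.100), and Gfra3 was also below 0 with Cdh19, Cyp2j9 and Cmtm5. Gfra3 had its highest values with Aspa (0.247) and Kcna1 (0.245). These values are small, and they are descriptions across cells whose chip and sort are not known here.

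**Figure D3:**
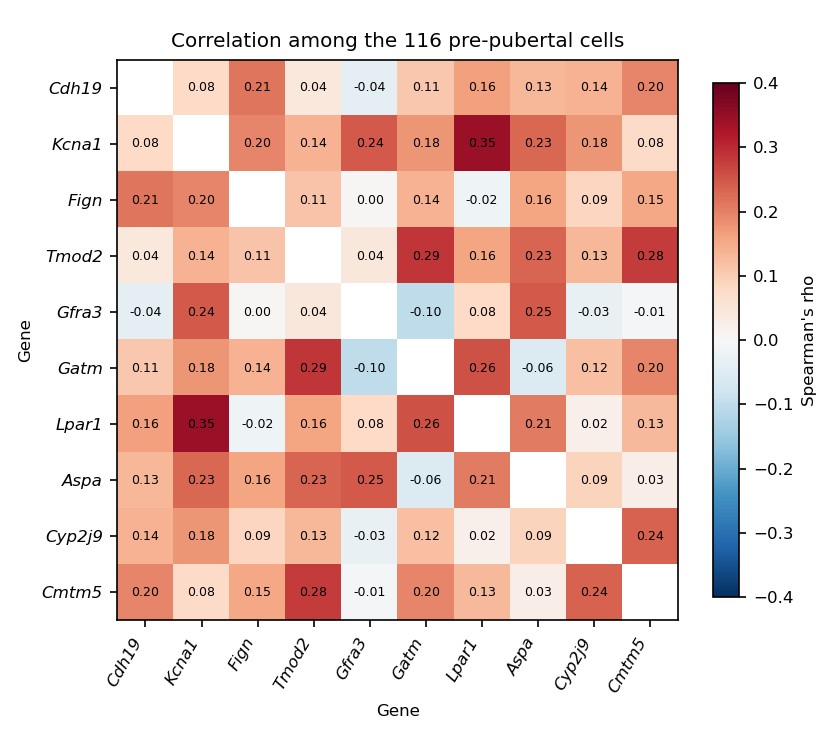
Spearman's rho of CPM between each pair of the 10 genes over the 116 pre-pubertal cells, with genes on both axes and colour from -0.4 (blue) to 0.4 (red). Kcna1 with Lpar1 is the highest pair at 0.35, and the row of Gfra3 holds 4 of the 6 negative pairs.

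Each gene was set against the summed level of marker lists over the same cells. With the 14 Schwann genes not tied to myelin, the members' rho had a median of 0.252 and was highest for Aspa (0.402) and Kcna1 (0.385) and lowest for Cmtm5 (0.0235). With the 14 myelin genes the median was 0.172, and the order differed: Cmtm5 (0.363), Gatm (0.305) and Tmod2 (0.272) were highest and Gfra3 (0.0533) lowest. All 20 of these values were above 0. With the 16 epithelial genes all 10 values were below 0, from -0.302 for Kcna1 to -0.0252 for Gfra3. With fibroblast genes 5 of 10 were positive, from -0.173 for Cmtm5 to 0.202 for Gfra3. With the total reads of the cell the values ran from -0.226 for Aspa to 0.148 for Lpar1, with a median of -0.03.

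Cell number marked a difference within the stage. Of the pre-pubertal cells numbered 1 to 37 only 12 were analysed, against 104 from 38 up, and Aspa had a median of 25.6 CPM in the former and 243 in the latter, Tmod2 19.8 and 321, and Cdh19 244 and 747. Lpar1 (2578 and 2666 CPM) and Gatm (1309 and 1239) were close. Depth differed as well. Reads per analysed cell ran from 275755 to 1189581 in cells 1 to 37 and from 109391 to 549760 from 38 up. Over cells 38 and up the median rho of the 45 pairs was 0.147.

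The 6 pre-pubertal cells with the fewest members differed in what else they held. Cells 30 and 119, with 4 and 5 members, held 12 and 13 of 15 basal epithelial genes, and Acta2, the smooth muscle actin of basal cells, had 12909 reads in cell 30. Cells 41, 114 and 118, with 5 members each, held 11, 10 and 11 of the 12 fibroblast genes. Of the 28 Schwann genes, cells 30, 119, 41, 114 and 118 held 9, 11, 4, 12 and 11. Many basal or fibroblast genes also occurred in cells with all 10 members. Cells 94 and 105 held 12 and 10 fibroblast genes, and cells 65 and 79 held 11 basal genes each. Cell 78, with 4 members, held 12 Schwann, 6 fibroblast and 0 epithelial genes, and its Kcna1, Gatm and Lpar1 reads were 1227, 1273 and 2437. Every one of the 116 cells had a profile over 5672 genes closest to the pre-pubertal mean.

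**Figure D4:**
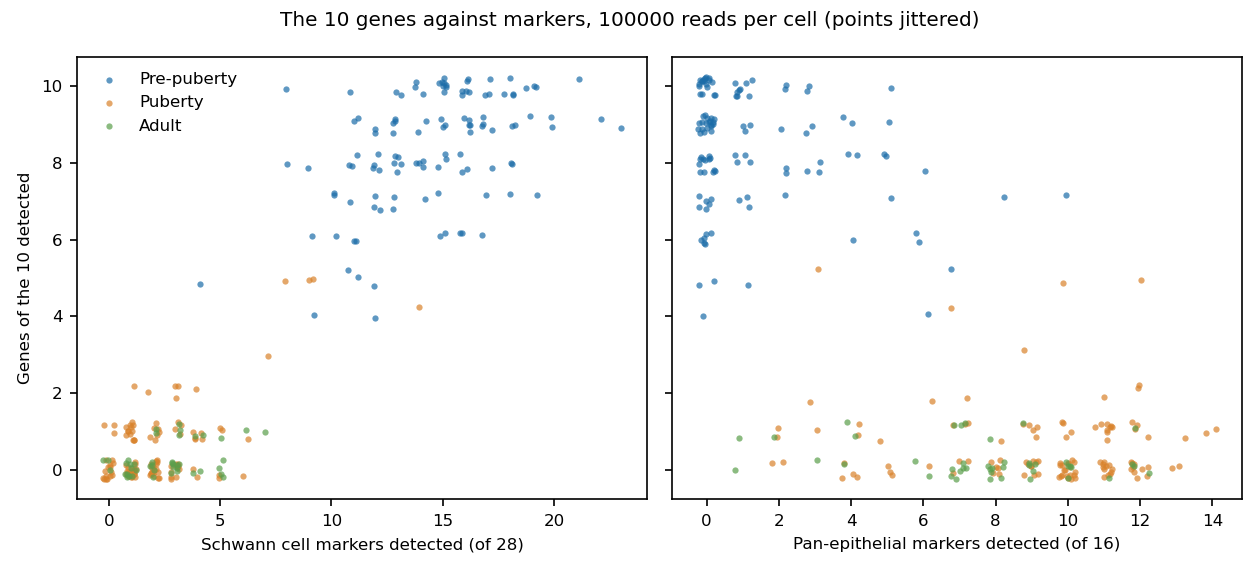
Number of the 10 genes detected per cell (vertical) against Schwann cell markers (left, of 28) and pan-epithelial markers (right, of 16) detected in the same 100000 reads, one point per cell, jittered. Pre-pubertal cells lie at 4 to 23 Schwann markers and mostly at few epithelial markers, and the 5 pubertal cells with 3 or more of the genes lie at 7 to 14 Schwann markers.

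The genes most like the members were found by Pearson's r of log2(CPM + 10) with the members' mean, among 1988 other genes at 100 CPM or more before puberty. Over all 279 cells, where the stage contrast that chose the members dominates, the 8 nearest included Gpm6b (0.913), Ncam1 (0.908), Matn2 (0.900), Abca8a (0.895), Chl1 (0.879), Col3a1 (0.874) and Scn7a (0.868). Within the 116 pre-pubertal cells the 8 nearest included Scn7a (0.533), Ank3 (0.458), Gpm6b (0.449), Gulp1 (0.447), Spata13 (0.440), Kcnh8 (0.430) and Ncam1 (0.429), where the median over the ranked genes was 0.0486. Scn7a is an atypical sodium channel, and Ncam1 a cell adhesion molecule. Gpm6b, Scn7a and Ncam1 were in both lists.

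The pubertal cells with 3 or more members were traced one by one. Cell 52 held 64 reads of Kcna1, 394 of Gatm, 899 of Aspa and 29 of Cmtm5, and none of the other 6 genes. It had 14 of 28 Schwann genes, 12 of them myelin genes, with 8691 reads of Mbp, 51879 of Pmp22 and 1034 of Sox10. It also held 7 of 16 epithelial and 5 of 14 luminal genes, with 11 reads of Epcam. Its profile was closer to the pre-pubertal mean (r = 0.395) than to the pubertal (0.337) or adult mean (0.294).

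Cell 55 held 336 reads of Kcna1, 31 of Fign, 690 of Gatm, 853 of Lpar1 and 536 of Aspa. It had 8 Schwann genes, with no read of Sox10, together with 5238 reads of Acta2, 233 of Krt14 and 308 of Epcam. Its profile lay about as near to the pre-pubertal mean (r = 0.528) as to the pubertal (0.525). Of the 119 pubertal cells 4 were closest to the pre-pubertal mean, and the other two, cells 29 (0.432, against 0.411 to the pubertal mean) and 103 (0.418 and 0.367), held 9 and 10 fibroblast genes, 1 and 2 Schwann genes and Lpar1 as the one member.

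Cell 77 held 9 reads of Cdh19, 178 of Kcna1, 282 of Gatm, 805 of Lpar1 and 7 of Aspa. It carried 12 of 16 epithelial genes, 13 of 15 basal and 10 of 12 fibroblast genes, with 1913 reads of Dcn and 253 of Epcam. Cell 64 held Kcna1 at 982 CPM, 54 reads of Gatm and 21 of Lpar1, with 1 read each of Fign and Aspa. It carried 10 epithelial, 11 basal, 7 fibroblast, 9 Schwann and 6 of 8 endothelial genes. Cell 39 held 34 reads of Gatm and 1 each of Cdh19 and Fign, with 9 epithelial, 10 basal, 6 fibroblast, 7 Schwann and 7 endothelial genes. Cells 39, 64 and 77 had 5598, 5624 and 4873 detected genes, against a pubertal median of 3599. The study reports that viewing its capture sites before sequencing showed a single cell in each. Whether these 3 cells held RNA of more than 1 cell was not tested here.

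These 5 cells held nearly all pubertal reads of some members and few of others. They held 98.8% of the Kcna1 reads, 99.7% of Aspa and 90.9% of Cdh19, but 40.4% of Gatm, 40.2% of Fign, 36.3% of Cmtm5 and 19.3% of Lpar1, and none of the reads of Tmod2, Gfra3 and Cyp2j9. Without them Kcna1 stood at 0.135 CPM and Aspa at 0.0752, whereas Gatm stood at 32.3 CPM and Lpar1 at 105.

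**Figure D5:**
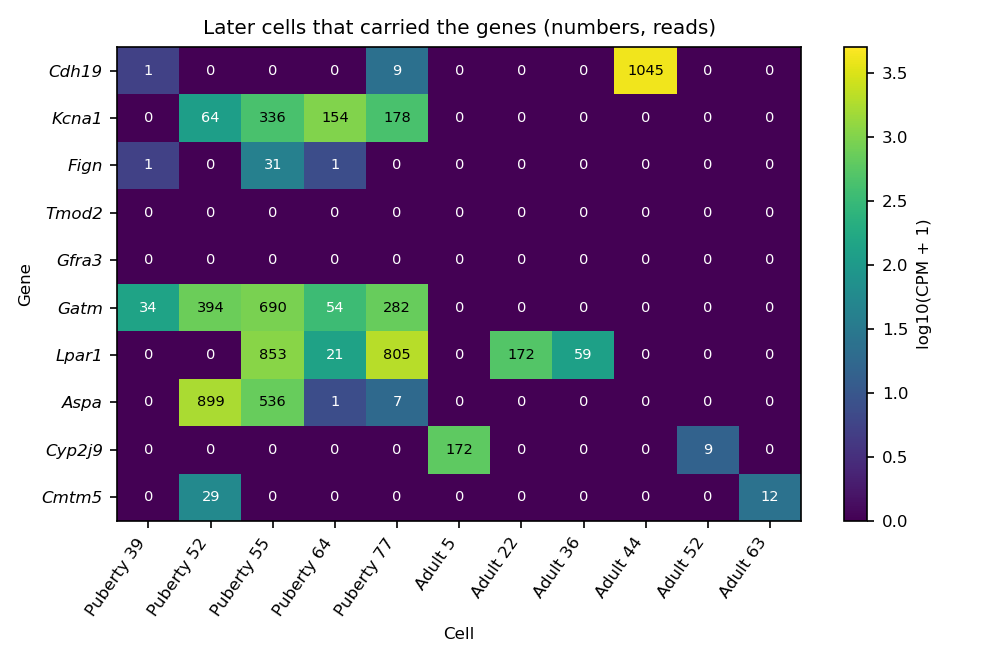
Reads of each of the 10 genes (numbers) and log10 of CPM plus 1 (colour) in the 5 pubertal cells with 3 or more of the genes and the 6 adult cells with at least 5 reads of any. Kcna1 and Gatm recur among the pubertal cells, and each adult cell held 1 gene.

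Gatm and Lpar1 were also read in other pubertal cells, and the markers of these cells are given here. Of the remaining pubertal cells, 20 had at least 5 reads of Gatm, and each held at least 5 of the 14 luminal genes (median 10) with a median of 1.5 Schwann genes. Of these 20, 7 also held 5 or more basal genes and 0 held 5 or more fibroblast genes. Lpar1 had at least 5 reads in 14, and each held at least 5 of the basal or at least 5 of the fibroblast genes, while 8 of the 14 also held 5 or more luminal genes. The highest of them, cell 29 with 2162 reads, held 9 fibroblast genes, 18896 reads of Dcn, and 2 epithelial genes. Both genes had at least 5 reads in 2 cells. Luminal genes were common at this stage, since 72 of the 82 cells with neither gene at 5 reads also held 5 or more. Of these 82, 31 held 5 or more basal or fibroblast genes.

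Single members stood alone in the 6 adult cells with at least 5 reads. Cell 44, with the Cdh19 reads, held 4 epithelial, 5 fibroblast and 3 Schwann genes. Cell 5, with the Cyp2j9 reads, held 6 of 8 endothelial genes and 1 epithelial gene. Cell 22 held 172 Lpar1 reads with 11 basal genes, and cell 36 held 59 with 8 fibroblast genes. Cell 52 held 9 reads of Cyp2j9 and cell 63 held 12 of Cmtm5. None of the 6 had a profile closest to the pre-pubertal mean.

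The members' relatives and pathway partners, 79 genes with a match of 80 listed, pointed in both directions. Against puberty 44 were at 10 CPM or more in either stage, of which 14 (31.8%, against 21.5% of all genes) had a log2 ratio above 1, 11 below -1 and 19 between. Against the adult 20 of 43 were above 1 (46.5%, against 31.7%) and 13 below -1.

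Where 1 cell moved a value by over 1.5 times, the level without that cell is given for the stage. Among the channel's relatives, Kcna2, which assembles with Kcna1, stood at 468 CPM before puberty and 8.68 at puberty, with 1 adult read. Of the 595 pubertal reads 505 were in cell 52, the cell rich in myelin genes, and 1.32 CPM was left without it. Kcna6 stood at 110 CPM before puberty, with 1 pubertal read and no adult read. Lgi4, a secreted Schwann cell protein, stood at 93.3 CPM before puberty, with 18 pubertal reads, 14 of them in 1 cell, and no adult read. Its receptor Adam22 stood at 56.2 CPM before puberty and 20.8 at puberty (12.6 without cell 18), with 1 adult read.

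For Gfra3, its ligand Artn had no read before puberty, and 253 of the 254 reads of Ret there were in cell 58. Gfra2 stood at 140 CPM before puberty and 0.131 at puberty, and at 11.3 in the adult, where 2.51 was left without cell 37. Among cadherins, Cdh2 stood at 45.1, 2.04 and 0 CPM by stage. Cdh1, that of epithelium, stood at 7.46 before puberty (2.55 without cell 110), 72.0 at puberty and 24.6 in the adult.

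Tmod3, the widely expressed tropomodulin, stood at 65.7 and 126 CPM before and at puberty and at 75.0 in the adult (46.2 without cell 63). Tpm2, a tropomyosin of muscle and basal cells, stood at 128 before puberty (81.3 without cell 30), 354 and 711. Katna1, a microtubule-severing relative of Fign, stood at 14.5, 66.2 and 151.4 CPM, the last of which was 89.0 without cell 24.

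Gamt, which completes creatine synthesis after Gatm, stood at 11.4 CPM before puberty and 4.84 at puberty (2.37 without cell 59). Its adult level of 74.8 CPM came to 97.9% from cell 41, and without it 1.69 was left, so the direction against pre-puberty turned on that cell. Lpar4 stood at 65.9 CPM before puberty (41.6 without cell 12), 19.6 and 1.71. Lpar6 stood at 41.9, 143 and 125 CPM, the last of which was 54.5 without cell 41. Plpp3, which degrades lysophosphatidic acid, was at 329, 253 and 328.

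Cyp2j6, next to Cyp2j9 in its gene cluster, stood at 287 and 32.0 CPM before and at puberty, with 2 adult reads, and since the 2 genes are alike in sequence, how reads were split between them is uncertain. Ephx2, which hydrolyses the epoxides, stood at 69.2 CPM before puberty and 10.1 at puberty, where cell 93 held 614 of the 696 reads, and its 61 adult reads were all in cell 4. Among the relatives of Cmtm5, Cmtm8 ran the other way, at 0.467 CPM before puberty (0.0991 without cell 110), then 23.2 and 90.4 (41.2 without adult cell 41). Cmtm6 stood at 30.2 (15.4 without cell 29), 39.4 and 183.6 CPM (92.5 without cell 12).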

How the data were processed

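Read counts of 346 single cells were analysed, 1 table per cell. The deposited counts are whole read pairs per Entrez gene, not normalised. The authors mapped read pairs to mm10 with Subread and assigned them with featureCounts and the built-in RefSeq annotation. The submitters' processing notes name Subread 1.4.6. The tables' other column, the deposited gene length, was used for RPKM. There were no molecular identifiers, so amplified copies count separately, and the treatment of reads shared by similar genes is not given in the sources used here. A table of the whole series with the same kind of counts was not used.

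Symbols came from RefSeq (GRCm38.p6), which matched 25275 of 27179 genes. As in the study, the 1904 unmatched genes, 15 mitochondrial and 110 ribosomal protein genes were removed, leaving 25150, and cells under 100000 reads or 1500 genes were dropped. CPM is summed reads per 1000000 of the stage total, with exact Poisson intervals at 95%; shares have Clopper-Pearson intervals, and a share or level of 0 is limited by 3 counts. Log2 ratios add 5 CPM, which understates changes of low genes, and cell values add 10 CPM. Detection used 100000 reads drawn per cell. Spearman's rho used cell CPM. A profile is log2(CPM + 10), set by Pearson's r against each stage's mean. No doublet caller was run. Code was tested on simulated cells. Python 3.11.15, numpy 2.4.6, pandas 2.3.3, scipy 1.17.1, matplotlib 3.10.9, edgeR 4.0.16 and DESeq2 1.42.0 were used, the last 2 for scaling factors alone.

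The 10 genes, the marker and partner lists and the measures were chosen with earlier results of these data known. Genes named beside the members were those lists' genes at 100 CPM or more, at 0, or defining a list, and the 8 genes most correlated with the members. Some genes that these rules name are not reported here. Other partners named, and single cells, were picked after their values were seen.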

Additional observations from a re-analysis of the deposited data

Results flagged for a closer look

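The 28 pre-pubertal cells left out for low coverage, with a median of 11331 reads, carried the 10 genes as well. Summed over the genes their level was 8774 CPM (95% Poisson interval 8525 to 9030), against 11705 in the analysed pre-pubertal cells. All 28 held at least 1 of the genes, the median was 6, and 25 of the 28 were among cells 1 to 37. It was listed because these cells were left out of the report's values, though not of the alternative with no filter on cells, and lie above the later stages, where the 17 left-out pubertal cells stood at 78.8 CPM (19.6 without their top cell) and the 22 adult cells at 6.87.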

How the results depend on the processing

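No ratio changed sign under any alternative. The median log2 ratio of the members over puberty (6.10) was 7.47 with 1 CPM added, 6.18 with equal weight for each cell, 6.19 with pre-pubertal cells 38 and up, and 6.03 with all genes counted. Over the adult (6.66) the same changes gave 8.74, 6.84, 6.92 and 6.58, TMM factors gave 6.71, and leaving out the top cell of each gene and stage gave 7.08. The other scalings, the unfiltered and the stricter cell sets and the filter on low genes left both medians within counting error. Of 200 values for single genes, 111 stayed within counting error, 89 moved and 0 changed sign, between 3.36 and 11.3. The members per pre-pubertal cell had a median of 7 when detection needed over 40 RPKM. The later cells with 3 or more members (5) were 3 above 40 RPKM, 3 when 5 or more members were required, and 2 without cells of over 4500 detected genes, which was chosen after seeing the data. Another random draw gave 4. The correlation median (0.138) stayed above 0, and was lowest, at 0.0735, over the 99 cells with 3 or more Schwann and at most 3 epithelial genes. No paired analysis was possible because cell numbers shared between stages only name cells and no result came from a test. The number of cells limits the zeros: with 44 adult cells a gene found in none could still be in up to 6.82% of cells.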
